A study of Homo sapiens with 16 samples.

Results

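Plasma cell identity genes are the 9 genes IRF4, PRDM1, XBP1, POU2AF1, SDC1, CD38, SLAMF7, MZB1 and JCHAIN, chosen by name as transcription regulators, surface proteins and antibody-assembly proteins of antibody-secreting cells. All 9 were found among the 19970 protein-coding gene records of chromosomes 1 to 22 and X in RefSeq GRCh38.p14. For each gene, peaks were taken that overlapped its record and 10 kb on either side by at least 1 bp, here called its window. The study profiled H3K4me3, a histone mark of active and poised promoters, and H3K27me3, a mark that Polycomb repressive complex 2 writes at silent genes, by ChIPmentation, a form of chromatin immunoprecipitation whose library is made with a transposase.

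All samples were of the cell line TKO, labelled as plasma cells with the genotype KMS-11 WHSC1(+/-). KMS-11 is an established multiple myeloma line, and WHSC1 is an older symbol of NSD2, whose protein methylates histone H3 at lysine 36. The 4 groups of cells, called forms here, were labelled WT (wild type NSD2), D1240A and F1295A (NSD2 with the named substitution) and plain TKO, for which the labels give no form. How the forms were introduced, and whether each was a single clone, is not given in the sources used here. Of the 16 samples, every form contributed 1 for H3K4me3, 1 for IgG and 2 for H3K27me3. The deposited data were 8 peak lists, 1 per form and mark, and the H3K27me3 replicates of a form share their list. No difference between forms below has a replicate check, and no test was run. Read depth is unknown. The H3K4me3 lists held 7396 to 8239 peaks and the H3K27me3 lists 2083 (F1295A) to 5881 (TKO).

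When a B cell becomes a plasma cell, IRF4, PRDM1 and XBP1 shut down the B cell programme and build up the secretory apparatus. H3K4me3 is laid down around the start sites of transcribed genes, mostly at promoters rich in CpG dinucleotides, and unusually broad H3K4me3 domains are known from genes that define a cell's identity. H3K27me3 spreads over repressed genes and can share a promoter with H3K4me3, a state called bivalent.

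Promoter sequences show how unlike the members are where the marks were read. RefSeq promoter windows of GRCh38.p14, running from 250 bases before to 50 bases after a start site, were at hand for 7 of the 9 genes and for 10 start sites, and POU2AF1 and SLAMF7 had no entry. The 6 printed here are those of the genes that the results turn on, on the strand of the gene, 5′ to 3′, with every CpG in capitals.
JCHAIN (chr4:70666459-70666758, minus strand): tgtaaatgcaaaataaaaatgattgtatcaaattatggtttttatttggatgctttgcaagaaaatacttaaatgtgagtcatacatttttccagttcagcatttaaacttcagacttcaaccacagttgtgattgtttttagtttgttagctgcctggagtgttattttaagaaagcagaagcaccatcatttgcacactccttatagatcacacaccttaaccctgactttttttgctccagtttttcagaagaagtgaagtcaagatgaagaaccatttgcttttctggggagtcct
CD38 (chr4:15778078-15778377, plus strand): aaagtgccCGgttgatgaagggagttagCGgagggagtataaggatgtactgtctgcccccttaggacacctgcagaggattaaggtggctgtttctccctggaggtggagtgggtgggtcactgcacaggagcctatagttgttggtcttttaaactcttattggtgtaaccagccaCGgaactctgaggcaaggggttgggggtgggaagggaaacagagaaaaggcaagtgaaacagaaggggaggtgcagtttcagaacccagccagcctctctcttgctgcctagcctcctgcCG
MZB1 (chr5:139389864-139390163, minus strand): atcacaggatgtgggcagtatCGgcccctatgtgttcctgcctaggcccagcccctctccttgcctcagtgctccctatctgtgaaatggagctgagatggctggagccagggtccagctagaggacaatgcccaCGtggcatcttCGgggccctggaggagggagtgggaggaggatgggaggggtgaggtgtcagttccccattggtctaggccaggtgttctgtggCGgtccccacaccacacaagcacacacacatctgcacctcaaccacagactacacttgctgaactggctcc
PRDM1, the lower of its start sites (chr6:106086086-106086385, plus strand): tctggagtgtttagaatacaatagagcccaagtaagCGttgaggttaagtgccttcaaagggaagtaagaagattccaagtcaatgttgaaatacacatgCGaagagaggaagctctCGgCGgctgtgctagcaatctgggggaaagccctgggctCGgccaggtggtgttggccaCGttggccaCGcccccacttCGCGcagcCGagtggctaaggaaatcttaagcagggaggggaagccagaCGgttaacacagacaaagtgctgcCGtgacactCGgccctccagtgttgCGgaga
SDC1, the upstream start site (chr2:20225426-20225725, minus strand): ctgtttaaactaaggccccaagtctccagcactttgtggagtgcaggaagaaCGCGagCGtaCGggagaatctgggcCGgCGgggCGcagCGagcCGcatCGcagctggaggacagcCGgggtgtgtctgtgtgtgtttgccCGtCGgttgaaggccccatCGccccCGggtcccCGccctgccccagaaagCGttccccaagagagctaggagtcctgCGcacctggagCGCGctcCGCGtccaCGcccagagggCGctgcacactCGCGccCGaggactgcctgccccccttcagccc
XBP1, the upstream start site (chr22:28800520-28800819, minus strand): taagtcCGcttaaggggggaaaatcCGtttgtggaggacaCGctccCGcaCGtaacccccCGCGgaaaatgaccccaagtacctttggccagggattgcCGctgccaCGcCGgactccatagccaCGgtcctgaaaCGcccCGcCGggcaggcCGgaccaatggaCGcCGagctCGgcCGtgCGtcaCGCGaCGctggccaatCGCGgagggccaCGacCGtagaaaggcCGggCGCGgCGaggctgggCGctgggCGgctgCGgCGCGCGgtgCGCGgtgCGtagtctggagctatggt

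JCHAIN had 0 CpG in its 300 bases and CD38 and MZB1 had 4 each, while the windows shown for PRDM1, SDC1 and XBP1 had 14, 27 and 40. Over 22131 promoter windows of protein-coding genes the median was 21. Of the windows shown, that of XBP1 stood at the 90.8th percentile, that of SDC1 at the 64.8th and that of PRDM1 at the 37.0th. Those of CD38 and MZB1 stood at the 16.3th and that of JCHAIN at the 0.974th. PRDM1, SDC1 and XBP1 each have another start site, whose window is not shown and had fewer CpG, at 8, 23 and 23. At SDC1 and XBP1 this was close to the median, so their standing depends on the start site taken. The IRF4 window (chr6:391502-391801, plus strand) had 32 CpG, at the 76.7th percentile. H3K4me3 covered all 300 bases at IRF4, PRDM1, XBP1, MZB1 and JCHAIN in every form, at SDC1 in WT and F1295A, and none at CD38. CD38 and MZB1 had the same number of CpG, and H3K4me3 covered the window of MZB1, under a peak that it shares with neighbouring genes, and not that of CD38. Among the 812 windows with exactly 4 CpG, H3K4me3 reached 4.43% (TKO), 5.30% (WT), 5.30% (D1240A) and 6.65% (F1295A), against 39.3%, 43.3%, 41.3% and 43.9% of all windows.

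Motifs of factors that work in these cells were searched for in the windows. On both strands, 0 of the 10 member windows held ATGCAAAT (the octamer, read by the OCT factors that the POU2AF1 protein joins), GAAA followed after any 2 letters by GAAA (the interferon response element, a type of site bound by IRF proteins), AGNGAAAG (a PRDM1 core) or TGACGTGG (an XBP1 element). Of all 22131 windows these letters were in 1.65%, 3.17%, 7.50% and 0.764%. At such shares, finding 0 in 10 windows is close to background and sets the members apart in nothing. CCAAT was in 1 window each of XBP1, CD38 and MZB1, against 34.6% of all windows, and TATAAA began 32 bases before the start of IRF4, against 9.46%. These are matches of letters in short windows and do not report binding.

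H3K4me3 lay at 5 of the 9 genes in TKO, where 47.5% of all protein-coding genes had such a peak in their windows. WT had it at 7 (51.4% of all genes), D1240A at 6 (49.2%) and F1295A at 7 (52.1%). IRF4, PRDM1, XBP1, MZB1 and JCHAIN had it in all 4 forms, as did 46.6% of all genes. POU2AF1 had it in 3 forms and SDC1 in 2, and 6.38% of all genes had it in some forms and not in others. CD38 and SLAMF7, both markers of the labelled cell type, had it in none, as did 47.0% of all genes. H3K27me3 lay at SDC1 in every form (8.34% of all genes), at SLAMF7 in TKO and WT (12.2% had it in some forms and not in others) and at the 7 other genes in none (79.5%). This gives 2, 2, 1 and 1 of the 9 genes in TKO, WT, D1240A and F1295A, against 18.4%, 16.1%, 9.36% and 9.93% of all genes. With 9 genes, the H3K27me3 counts and the H3K4me3 count in TKO are close to these backgrounds. The H3K4me3 counts of 6 and 7 in the other forms are above theirs by few genes, and this was not tested.

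**Figure D1:**
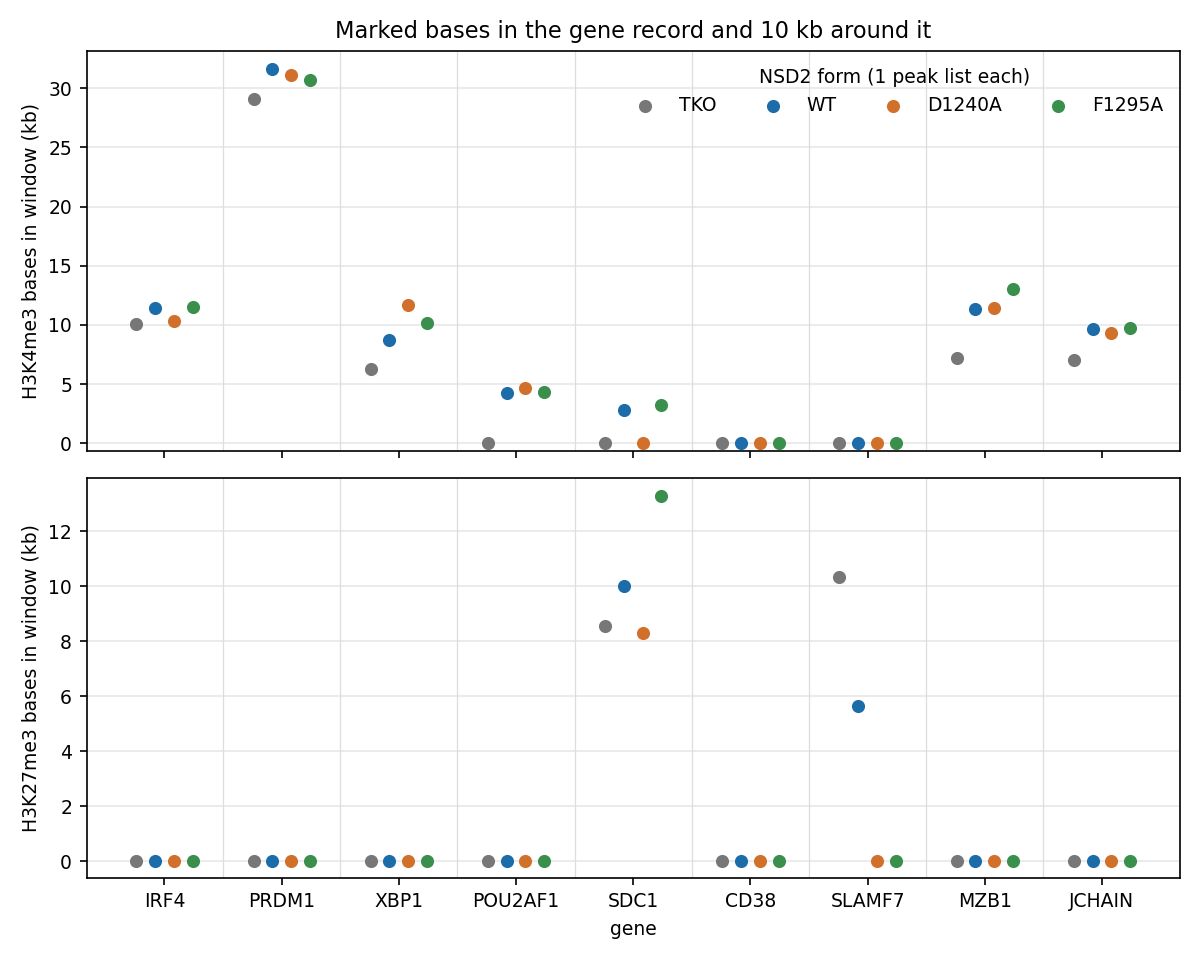
Bases within each gene's window that peaks covered, in kb, for H3K4me3 (upper panel) and H3K27me3 (lower panel), with 1 point per form and no error bars since each form and mark has a single list. PRDM1 has the most H3K4me3 in every form, from 29.12 to 31.58 kb, and in the lower panel only SDC1 and SLAMF7 leave 0.

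Among the transcription factors, PRDM1, which encodes the repressor BLIMP-1 that ends the B cell programme, carried one of the widest H3K4me3 peaks of each list. This peak lay over the part of the record that holds both start sites of the promoter table. It was 22.61 kb wide in TKO (chr6:106085078-106107683), 24.52 kb in WT, 24.04 kb in D1240A and 23.55 kb in F1295A. By width it ranked 1st of 7396 peaks in TKO, 2nd of 8140 in WT, 2nd of 7712 in D1240A and 4th of 8239 in F1295A, and was 8.36, 7.45, 7.17 and 6.36 times the list's median width. In total signal, which adds up over the peak, it stood between the 98.2th and the 98.6th percentile. A percentile here is the share of the same list that was lower, with ties split evenly. Mean signal per base was low for its list, at the 1.82th percentile in TKO, 11.1th in WT, 12.1th in D1240A and 20.9th in F1295A. Its highest signal was below the middle of each list, from the 34.3th percentile in F1295A to the 45.4th in TKO. The peak was therefore broad, and ranked lower by mean signal than by highest signal in every form. The highest stretch lay 1300 to 1939 bp downstream of a start site.

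A further PRDM1 peak covered the lower end of the record, some 85 kb away, with a gap of 84960 bp to the main peak in WT and 86985 bp in TKO. It was 6.51 kb wide in TKO, 7.06 kb in WT, 7.04 kb in D1240A and 7.12 kb in F1295A, at the 93.3th to 98.3th percentile by width. PRDM1 lies on the plus strand, so this peak covers the 5′ end of its record, although the promoter table lists no start site there. Over the whole window the bases covered were 29.12 kb in TKO, 31.58 kb in WT, 31.08 kb in D1240A and 30.67 kb in F1295A, and 29.06 kb were common to all 4, or 91.4% of the bases covered in any. PRDM1 was the member whose H3K4me3 differed least between forms, with the largest value 1.08 times the smallest.

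IRF4, the factor on which myeloma cells depend for survival, had a single H3K4me3 peak over its start site in each form. It was 10.11 kb wide in TKO (chr6:389347-399452), 11.42 kb in WT, 10.33 kb in D1240A and 11.53 kb in F1295A. These widths ranked 9th in TKO, 46th in WT, and 75th and 106th in D1240A and F1295A, at the 98.7th to 99.9th percentile. Total signal stood at the 88.4th to 93.2th percentile and mean signal at the 8.90th to 42.7th. The highest stretch lay 194 to 416 bp downstream of the start, and the 10.07 kb shared by all forms were 87.0% of the bases covered in any.

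XBP1, which drives the secretory and unfolded protein response genes, had a single peak whose reach differed more between forms. It was 6.27 kb wide in TKO (chr22:28796605-28802875), 8.70 kb in WT, 11.68 kb in D1240A and 10.18 kb in F1295A. The D1240A and F1295A peaks covered all 6010 bp of the record and ran past its far end, the WT peak covered 5509 bp of it and the TKO peak 3965 bp. The TKO peak lay inside each of the others, and its bases were 52.0% of those covered in any form. By width the peaks were at the 97.8th to 99.5th percentile and by total signal at the 75.7th to 83.1th. By mean signal the D1240A peak, the widest, was at the 5.57th percentile and the others at the 15.3th to 22.1th.

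POU2AF1 encodes the B cell coactivator OCA-B, which joins OCT factors on octamer sites. Its H3K4me3 peak was 4.22 kb wide in WT (chr11:111376257-111380478), 4.71 kb in D1240A and 4.36 kb in F1295A, and TKO had no peak in the window. The peak lay across the higher end of the record, with the highest stretch 326 to 336 bp inside it. It was wider than most of its list (75.6th, 80.9th and 67.3th percentile) and among the faintest, at the 5.15th, 5.12th and 12.7th percentile by total signal and at 0.891, 0.629 and 3.56 by mean signal. The nearest TKO peak was 222.43 kb from the record, at SIK2. Among peaks this faint, a TKO peak overlapped 37.1% of WT peaks and 53.4% of D1240A peaks under the 10th percentile. For F1295A peaks between the 10th and 20th percentile the share was 65.2%. Absence in TKO was thus the more frequent outcome for such WT peaks only. With the 7396 strongest peaks of each list, WT had none at POU2AF1 either.

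**Figure D2:**
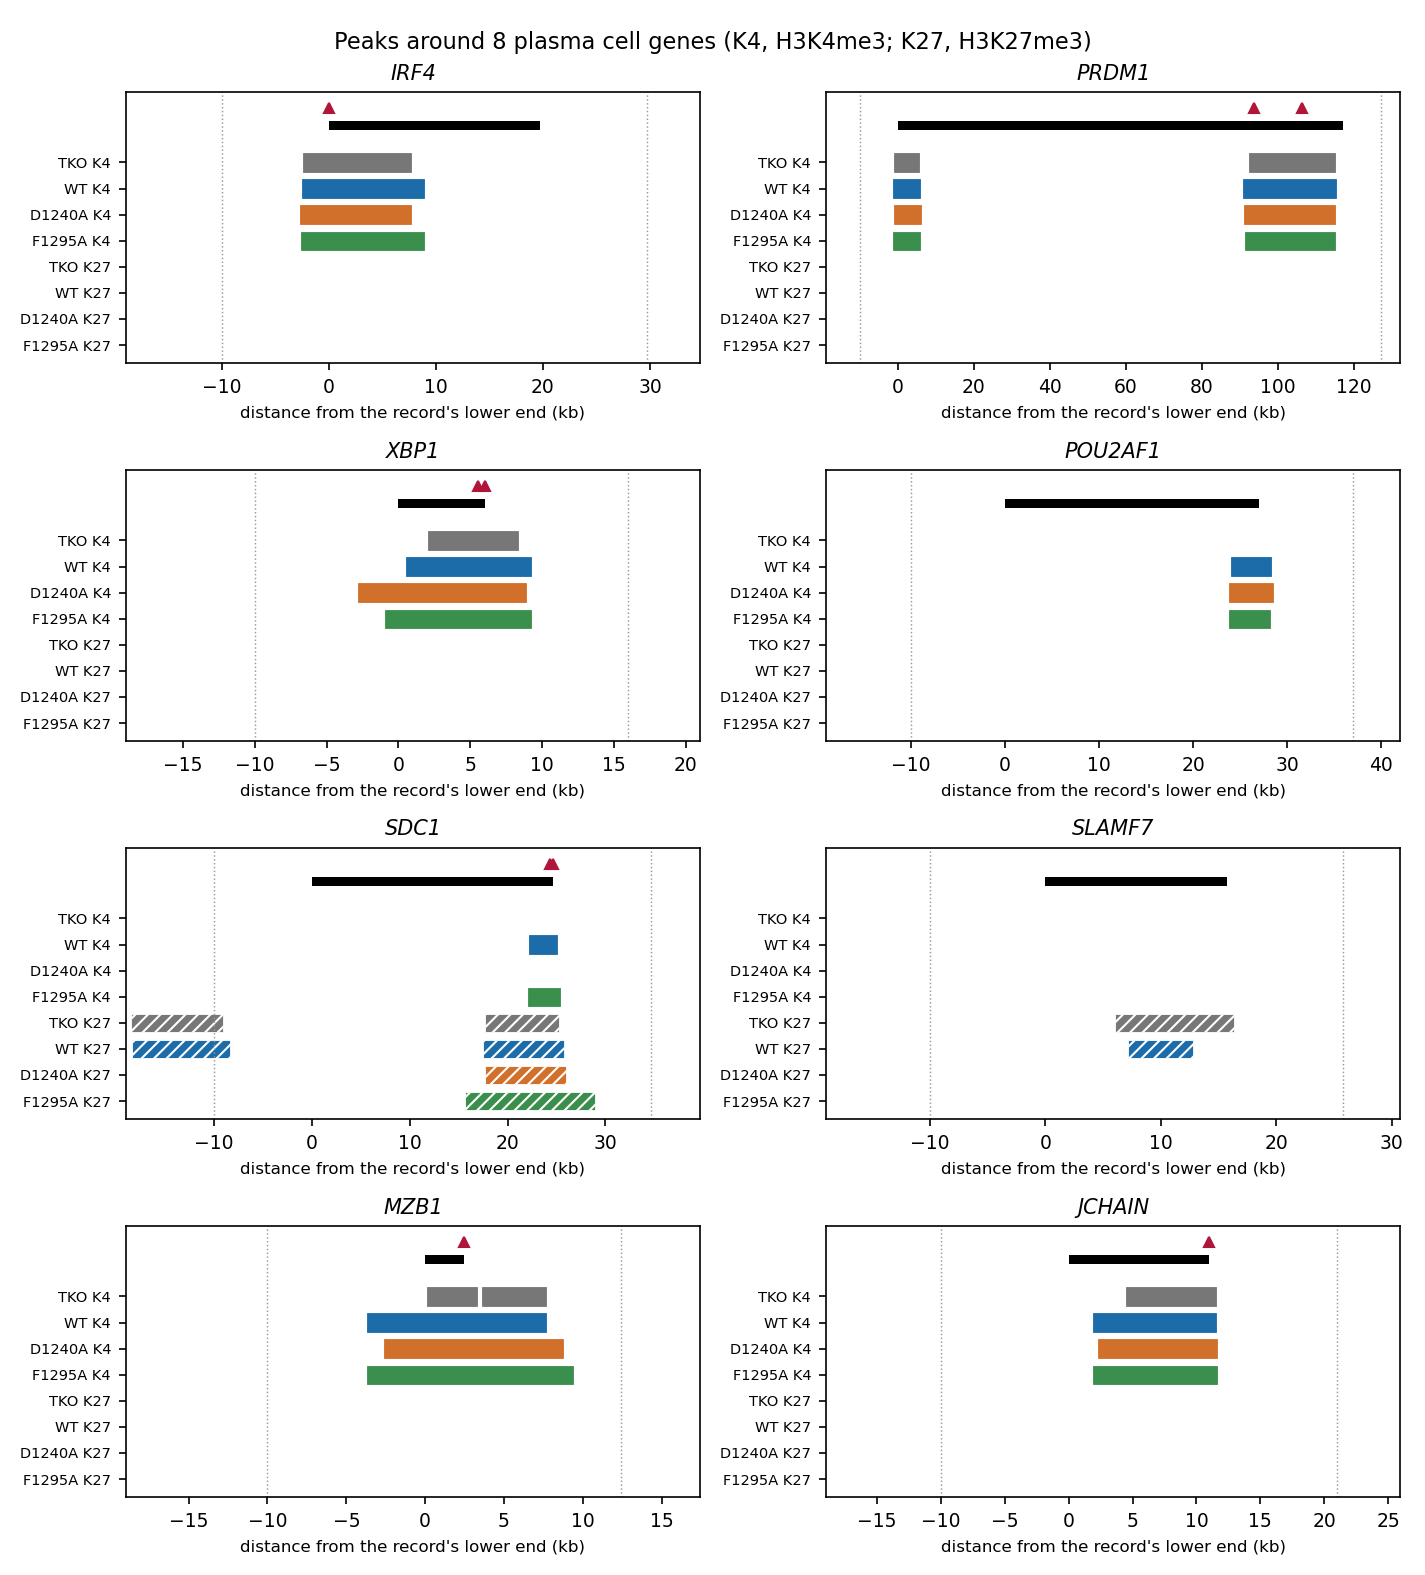
Peaks of both marks around 8 of the 9 genes (CD38 has none), by distance in kb from the lower end of the gene record. Solid bars are H3K4me3 and hatched bars H3K27me3, coloured by form, the black bar is the record, red triangles are start sites in the promoter table, and dotted lines bound the window. The SDC1 panel shows both marks over the same end in WT and F1295A, and the MZB1 panel a gap in TKO alone.

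The surface protein genes had little H3K4me3. SDC1 encodes CD138, the surface proteoglycan by which plasma cells are commonly sorted. Its H3K4me3 peak was 2.80 kb wide in WT (chr2:20223041-20225839) and 3.20 kb in F1295A, and TKO and D1240A had none in the window. Both peaks held the annotated start sites, with the highest stretch 145 bp downstream of one of them in each. They were narrow and faint, at the 28.9th and 32.7th percentile by width and at the 9.80th and 18.2th by total signal, and their highest signal was at 0.670 and 2.03. The nearest H3K4me3 peaks in TKO and D1240A were 123.82 and 122.80 kb away, at PUM2. Of WT peaks under the 10th percentile, D1240A overlapped 52.0% and TKO 37.1%, and of F1295A peaks between the 10th and 20th percentile D1240A overlapped 87.4% and TKO 65.2%. In the stronger 50% of each list, 0 forms had H3K4me3 at SDC1 or POU2AF1.

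H3K27me3 covered the start sites of SDC1 in all 4 forms. The peak was 7.63 kb wide in TKO (chr2:20218464-20226096), 8.30 kb in WT, 8.28 kb in D1240A and 13.26 kb in F1295A, which was the widest by both edges. It stood at the 54.1th percentile of its list by total signal in TKO, 60.7th in WT, and 25.7th and 31.5th in D1240A and F1295A, and near the median width of each list, at 1.02, 0.869, 0.799 and 1.04 times. All forms shared 7.59 kb. TKO and WT had another H3K27me3 peak below the record, 9.32 and 10.08 kb wide, that entered the window by 927 and 1691 bp only. SDC1 was the single member with both marks, in WT and F1295A, against 6.82% and 4.14% of all genes, and 0 members had both in TKO and D1240A, against 6.62% and 3.49%. All 2799 bp of H3K4me3 in WT and all 3204 bp in F1295A lay inside the H3K27me3 peak. In these lists 0.479% of WT and 0.231% of F1295A H3K4me3 peaks lay wholly inside an H3K27me3 peak. Peaks on the same bases do not show that the same nucleosomes or cells carried both marks.

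CD38, an enzyme on the cell surface that breaks down NAD and is targeted by myeloma antibodies, had no peak of either mark in any list, as had 35.8% of all genes. The nearest H3K4me3 peak was 95.27 to 122.10 kb from its record, at FBXL5 and FAM200B, and the nearest H3K27me3 peak more than 6 Mb away, at 6865.47 to 7157.14 kb.

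SLAMF7, a receptor of the signalling lymphocytic activation family and another antibody target in myeloma, had H3K27me3 over its record in TKO and WT and in neither mutant. The peak was 10.34 kb wide in TKO (chr1:160745105-160755445) and 5.64 kb in WT (chr1:160746231-160751868), and the WT peak lay inside the TKO peak. The TKO peak ran past the higher end of the record, and neither reached the lower end. It stood at the 56.3th percentile by total signal in TKO and at the 25.7th in WT. In D1240A and F1295A the nearest H3K27me3 peak was 312.38 and 311.65 kb away, at VANGL2. Of all genes, 6.89% had H3K27me3 in WT and not in D1240A and 6.41% in WT and not in F1295A. For TKO these shares were 9.19% and 8.72%. Of WT peaks between the 20th and 30th percentile, where the SLAMF7 peak stood, D1240A overlapped 53 of 379 and F1295A 74. With the 2083 strongest peaks of each list, 0 forms had H3K27me3 at SLAMF7, and TKO had none at SDC1. The nearest H3K4me3 peak to SLAMF7 was 264.62 kb away, in F1295A.

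Of the 2 antibody-assembly genes, JCHAIN had a broad H3K4me3 peak of its own. JCHAIN encodes the joining chain of polymeric IgM and IgA, and its peak was 7.04 kb wide in TKO (chr4:70660004-70667041), 9.69 kb in WT, 9.30 kb in D1240A and 9.73 kb in F1295A. It held the start site and covered 6505 to 9090 bp of the record, which is 10.97 kb long. The highest stretch lay 1058 bp downstream of the start in TKO, 2424 bp in WT, 1224 bp in D1240A and 2430 bp in F1295A, so signal was highest inside the gene. By width it was at the 97.8th to 99.0th percentile, by total signal at the 72.0th to 77.1th, and by highest signal at the 2.11th to 5.92th. Of the 431 promoter windows with 0 CpG, as in the JCHAIN sequence above, H3K4me3 reached 4 in TKO, WT and D1240A and 5 in F1295A, and JCHAIN was among them each time.

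MZB1, a cofactor of the endoplasmic reticulum chaperones that fold antibodies, lies among close neighbours, and its H3K4me3 was shared with them. The peak over it was 11.35 kb wide in WT (chr5:139383803-139395149), 11.40 kb in D1240A and 13.02 kb in F1295A, and reached the records of SLC23A1, PROB1 and SPATA24. Its highest stretch was nearest to the start of PROB1, 2132 to 2196 bp away. This stretch lay -2995 to -3059 bp from the start of MZB1, where minus is upstream. In TKO the region was split by a gap of 336 bp. The part over the MZB1 start was 3.19 kb wide, at the 58.0th percentile by total signal, with its highest stretch 138 bp downstream of the MZB1 start. The part over PROB1 and SPATA24 was 4.04 kb wide, at the 93.3th percentile. The ranks of the joined peaks (97.6th to 98.4th by total signal) therefore do not belong to MZB1 alone.

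**Figure D3:**
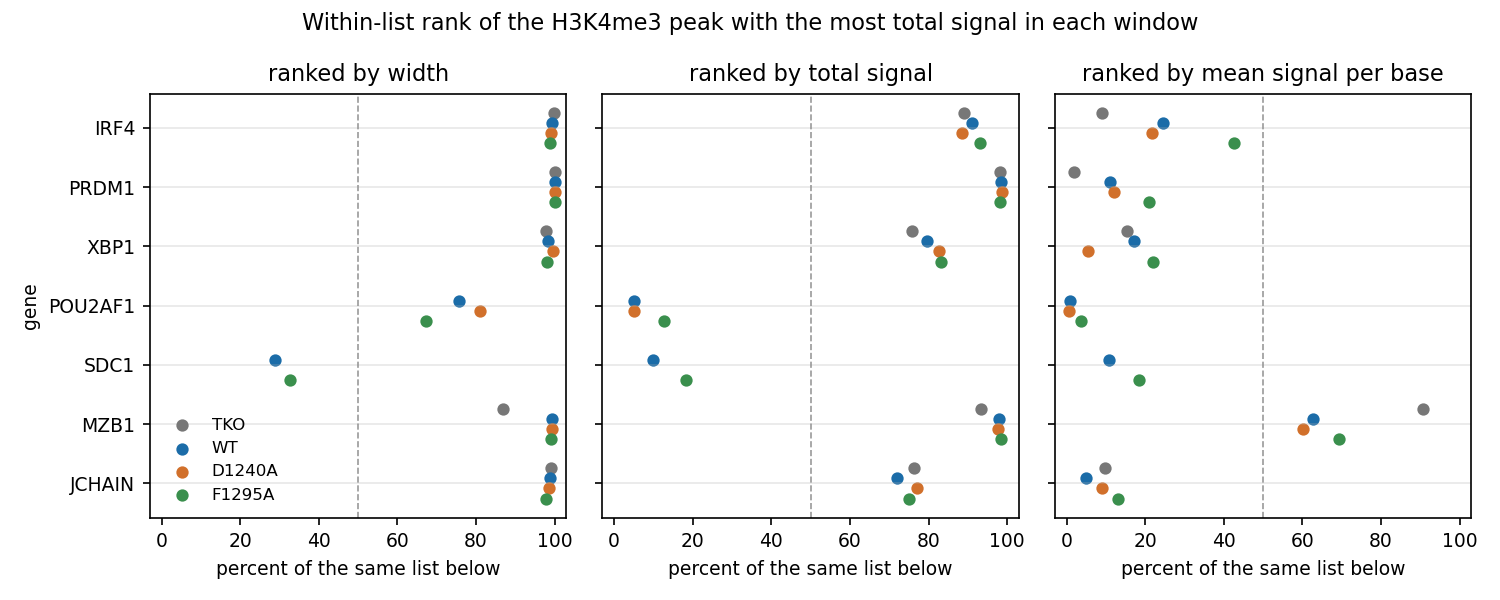
Percent of the same H3K4me3 list that was lower than the peak with the most total signal in each gene's window, ranked by width, total signal and mean signal per base, 1 point per form. IRF4, PRDM1, XBP1, MZB1 and JCHAIN sit at the right by width and, apart from MZB1, below 50 by mean signal, with IRF4 reaching 42.7 in F1295A. The TKO point of MZB1 is the peak over PROB1, and its other points are the joined peak shared with neighbouring genes.

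Most marked members stood high in their list by width and low by mean signal. For the strongest peak of each marked member, the median percentile by width was 99.0 in TKO, 98.8 in WT, and 99.2 and 98.1 in D1240A and F1295A. By mean signal the medians were 9.65, 11.1, 10.6 and 20.9. In each form 1 member, MZB1, was above the middle of its list. In TKO this was through the peak over PROB1, and in the other forms through the joined peak, highest nearest to PROB1. The TKO peak over the MZB1 start was at the 44.8th percentile by mean signal. The median width over these members was 7.04, 9.69, 10.87 and 10.18 kb, against list medians of 2.70, 3.29, 3.35 and 3.70 kb. All 5 marked members in TKO and 6 of 6 in D1240A were wider than the list median, as were 6 of 7 in WT and F1295A, where SDC1 was the exception. Choosing the peak with the most total signal itself favours wide peaks, so the same choice was made for every protein-coding gene with H3K4me3 in its window (9479 to 10412 genes a form). Over all of these the median percentile by width was 54.7 to 55.0 and by mean signal 54.9 to 55.5, and 54.7% to 55.0% had a peak wider than the list median.

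TKO was set beside WT to ask how the marks differ between plain TKO cells and those labelled wild type NSD2. POU2AF1 and SDC1 had H3K4me3 in WT and not in TKO, 2 of the 9 genes against 4.21% of all genes, and 0 had it in TKO alone of the pair (0.295% of all genes). The 5 genes marked in both had fewer bases in TKO, with log2 ratios of -0.65 at MZB1, -0.47 at XBP1, -0.46 at JCHAIN, -0.18 at IRF4 and -0.12 at PRDM1. Their median was -0.46, against -0.31 over the 9420 genes with bases in both lists, of which 92.8% had fewer in TKO. This median depended on the window: it was -0.20 on the gene record alone (all genes -0.26), -0.35 with 2.5 kb on either side (-0.29), -0.42 with 25 kb (-0.32) and 0.00 within 1 kb of a start site (0.00). H3K27me3 was present at the same members, SDC1 and SLAMF7, in both forms. Of all genes, 4.35% had H3K27me3 in TKO and not WT and 2.04% the reverse.

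D1240A and F1295A were each set beside the same WT list, so the comparisons are not independent. SDC1 had H3K4me3 in WT and not in D1240A, 1 of the 9 genes against 2.44% of all genes, and 0 members had it in D1240A alone of this pair (0.240%). F1295A marked the same 7 members as WT, where 1.48% of all genes had H3K4me3 in F1295A alone of the pair and 0.726% in WT alone. Over the 6 members marked in both D1240A and WT the median log2 ratio of bases was -0.01, with 3 lower and 3 higher, against 0.00 over 9773 genes. XBP1 had the largest ratio, 0.43, and stood at the 94.3th percentile of these genes. Over the 7 members marked in F1295A and WT the median was 0.05, with 6 higher, against 0.15 over 10116 genes. PRDM1 was the 1 with fewer bases in F1295A, at -0.04.

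Other genes of the plasma cell state, listed alongside the members, carried H3K4me3 without a difference in presence between forms. Of 29 such genes, 25 had it in all 4 forms and 4 in none, against 46.6% and 47.0% of all genes, and 1 to 3 had H3K27me3, depending on the form. ARID3A had H3K27me3 in TKO (4.10 kb) and WT (4.72 kb) only, and SEC11C, a signal peptidase subunit gene, in TKO (6.85 kb) and F1295A (6.74 kb). Genes of other blood cells were read in the same windows. Of 15 B cell programme genes, 5 had H3K4me3 in every form and 10 in none, while 7, 7, 4 and 4 had H3K27me3 in TKO, WT, D1240A and F1295A. Of 20 T, NK and myeloid markers, 4 had H3K4me3 in every form and 16 in none, and 8, 6, 3 and 5 had H3K27me3. The lower H3K27me3 counts in D1240A and F1295A go with lower shares over all genes, 9.36% and 9.93% against 18.4% in TKO and 16.1% in WT.

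**Figure D4:**
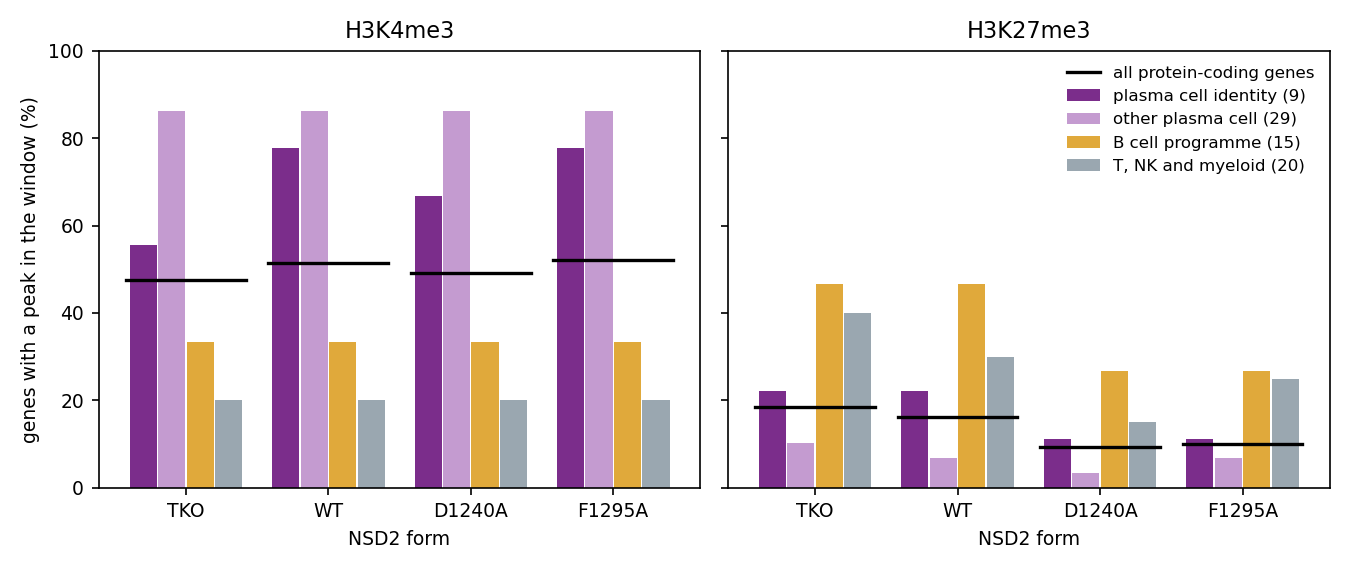
Percent of genes with a peak in the window, for 4 gene lists (bars, number of genes in the legend) and all protein-coding genes (black lines), by form, for H3K4me3 (left) and H3K27me3 (right). Bars of the 9 identity genes move between forms for H3K4me3, from 5 to 7 genes, while those of the 29 other plasma cell genes stay at 25.

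Members without H3K27me3 lay at different distances from the mark. The nearest H3K27me3 peak was 50.09 kb from IRF4 in TKO and 449.03 kb in WT, and 2532.92 and 2530.97 kb away in D1240A and F1295A. At MZB1 it was 50.77 kb away in TKO and 256.17 to 402.88 kb in the other forms. XBP1 had none within 290.05 kb, POU2AF1 none within 529.31 kb, JCHAIN none within 517.92 kb and PRDM1 none within 1707.25 kb in any form. At these 6 genes the distance was shorter in TKO and in WT, whose H3K27me3 lists are longer, than in D1240A and F1295A, but CD38, the other member without the mark, had 6865.56 kb in TKO and 6867.55 kb in WT beside 6865.47 kb in D1240A.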

How the data were processed

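Peaks of H3K4me3 and H3K27me3 were analysed in 4 forms of 1 cell line. IgG samples were not used here. The submitters' processing notes list SEACR 1.3 (a peak caller), Bowtie2 2.4.5 (an aligner), Trimmomatic 0.36, FastQC 0.11.4 and GRCh38. For peak calling, the mode, the control, the threshold and any scaling were not given in the sources used here. The deposited lists hold a total and a highest signal (coverage) for every peak, both made by the authors. Highest signal in H3K27me3 lists was whole in 50.1% to 53.1% of peaks, and how replicates were combined is unknown, so signal was used only to rank peaks within a list. No read totals are given, so depth is unknown and no interval rests on it.

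Windows, covered bases, ranks and promoter letters were computed in Python 3.11.15 with numpy 2.4.6, pandas 2.3.3 and scipy 1.17.1, with figures from matplotlib 3.10.9. The count of covered bases in windows was tested on simulated windows and peaks. Ranks, distances and promoter letters were not tested in this way. The gene table gives no strand, and start sites came from the promoter table. The members and lists were chosen with earlier results of these data known. All 9 members are named. Of the other plasma cell genes, those whose presence differed between forms are named, and neighbours where a shared peak reached them. The B cell list and the T, NK and myeloid list are given as counts only. H3K27me3 presence differed between forms at 4 and 5 of their genes, which are not named. SEC11C and ARID3A, which differed in H3K27me3, were added after their values were seen. Alternatives changed the window, the part of each list used, the overlap, the ranking or the background genes.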

Additional observations from a re-analysis of the deposited data

How the results depend on the processing

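No paired analysis was possible because each form and mark has a single list, shared by both replicates for H3K27me3, and no replicate could be left out for the same reason. Of 132 recomputed values, 112 stayed within a set limit, which was 1.5 times for counts and ratios and an identical value for percentiles. For the log2 ratios of bases this limit is wider than each main median, so staying within it does not show that a median held. TKO over WT went from -0.46 to 0.00 within 1 kb of a start site and still counted as not moved. The percentiles were compared across different measures, so their moving says little. Of another 160, on single genes and background shares, 138 did not move and 22 did. A background share counted as moved when it left the 95% interval of the main share, and each of them did. Windows of the gene record alone, 2.5 kb or 25 kb, peaks at least 1 kb wide, and at least 50% of the peak inside the window left every count of members unchanged. Within 1 kb of a start site (of either record end for POU2AF1 and SLAMF7), H3K27me3 was at 1 member in WT, since the SLAMF7 peak lies inside the record. In TKO, SLAMF7 stayed counted only through the higher end of its record. Which end holds its start was not known here, so this is no difference shown at a start site. With the stronger 50% of each list, H3K27me3 was at 1 member in WT, 0 in D1240A and 0 in F1295A, and 0 members had both marks in WT and 0 in F1295A. H3K4me3 was then at the same 5 members in every form, so the differences at POU2AF1 and SDC1 rest on the weaker 50% of the lists. With equal peak numbers (7396 for H3K4me3 and 2083 for H3K27me3), H3K27me3 was at 0 members in TKO and 1 in WT, and POU2AF1 had no H3K4me3 in WT. Median percentiles of the strongest H3K4me3 peak by total signal for TKO, WT, D1240A and F1295A were 89.0, 79.6, 85.5 and 83.1. They became 37.2, 27.5, 31.5 and 34.3 by highest signal, 9.65, 11.1, 10.6 and 20.9 by mean signal, and 99.0, 98.8, 99.2 and 98.1 by width. In the range of member record lengths, 50.2% to 54.8% of genes had H3K4me3 and 10.3% to 19.5% H3K27me3. Over all 59094 gene records, non-coding ones included, these were 24.7% to 27.6% and 5.85% to 12.6%.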

Other observations

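Few genes shared the whole presence pattern of SDC1, H3K4me3 in WT and F1295A with H3K27me3 in all 4 forms: 15 protein-coding genes had it, SDC1 included, or 0.0751%. By the distance of log2(bases in the window + 1) over the 8 lists, the genes most like SDC1 were DENND1A (distance 0.61), YPEL4 (0.82) and NDRG2 (0.98). DENND1A had 3.10 kb of H3K4me3 in WT and 3.41 kb in F1295A, and 9.05 to 9.10 kb of H3K27me3 in the 4 forms. The POU2AF1 pattern was shared by 318 genes and the SLAMF7 pattern by 398. WNT5A (0.05), HEY2 (0.07) and GABRB2 (0.08) were closest to POU2AF1, and SLC5A10 (0.07), SEPTIN3 (0.09) and BHLHE41 (0.13) to SLAMF7. The pattern of IRF4, PRDM1, XBP1, MZB1 and JCHAIN, H3K4me3 alone in every form, was that of 7788 genes, or 39.0%.

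The other promoter windows with 0 CpG that H3K4me3 reached were those of SRA1, ZBTB38 and LOC124902508 in every form, and of GAS2 in F1295A. These were named after their values were seen.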
